A study of Sus scrofa with 15 samples.

Results

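Transcripts of the epidermal growth factor (EGF) family of ligands and of their ERBB receptors were measured by RNA-seq in backfat of Iberian pigs. The 10 genes were chosen by symbol: the ligands EGF, HBEGF, AREG, BTC, TGFA and NRG4 and the receptors EGFR, ERBB2, ERBB3 and ERBB4. An Ensembl identifier was found for 9 of them among the 30477 genes of the count files, and NRG4 was not analysed here. Of these 9 genes, 7 passed the filter on low counts and were tested between diets (EGF, HBEGF, BTC, EGFR, ERBB2, ERBB3 and ERBB4), while AREG and TGFA lay below it and are given by their counts.

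The pigs were 12 months old and had received 1 of 3 diets through the growing period, with 5 pigs and 5 libraries per diet. The control diet (C) was a restricted compound feed, the DOP diet was a restricted compound feed containing dry olive pulp, and the WCOC diet combined a restricted compound feed free of by-product with a freely offered silage of wet crude olive cake and barley straw. All pigs of a diet shared 1 pen, so pen and diet cannot be told apart, and the libraries came from the pigs whose biopsies gave enough RNA of good quality. The sequencing identifiers place the 5 WCOC libraries with 4 of the C libraries on flow cell A, and the 5 DOP libraries with the remaining C library, replicate 5, on flow cell B.

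Between 22373715 and 34745218 read pairs per library were counted on genes. Levels are given as CPM, the count scaled to the library total after TMM adjustment, and differences as the log2 fold change (log2FC) with its standard error (SE). The adipocyte markers were present in every library, with 8 of 8 listed genes found, a summed level of 11255 to 19570 CPM and ADIPOQ as the most abundant. Skeletal muscle transcripts were also present, very unequally: the 11 genes found of 18 summed to 227 to 4386 CPM in C, 207 to 53940 in DOP and 197 to 1018 in WCOC, with TNNI2 at 0 in all libraries. Macrophage transcripts, with 11 of 11 genes found, summed to 285 to 861 CPM in C, 193 to 483 in DOP and 141 to 366 in WCOC. In bulk tissue, fewer cells of a type and less RNA per cell cannot be told apart.

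EGF family ligands are made as precursors anchored in the cell membrane, and proteases of the ADAM family release the part that carries the EGF-like module, a short domain folded around disulfide bonds. The module binds an ERBB receptor and makes it pair with another one, which starts the Ras-MAPK and PI3K cascades. EGF, TGFA and AREG bind EGFR, BTC and HBEGF bind EGFR and ERBB4, and the neuregulins bind ERBB3 or ERBB4. ERBB2 has no known soluble ligand and acts as the favoured partner, and ERBB3 has little kinase activity of its own and signals through its partner. In fat, EGFR signalling is known for its effects on precursor cell division and fat cell differentiation, and NRG4 is known as a secreted product of thermogenic fat.

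The coding sequence of the EGF-like module is shown for each of the 6 ligands from the first to the sixth cysteine codon. Each module was located in the translated sequence by a search for 6 cysteines at the spacing known for this family. The bases were spliced from 2 exons of the Sscrofa11.1 assembly with the RefSeq gene models, are written 5′ to 3′ on the coding strand, and carry the 6 cysteine codons in capitals. The module lies at chr8:112246303-112250681 for EGF (reverse strand), chr2:142105470-142110998 for HBEGF (reverse), chr8:70422265-70423089 for AREG (forward), chr8:70656273-70661513 for BTC (reverse), chr3:72035604-72043749 for TGFA (forward) and chr7:56202718-56259350 for NRG4 (reverse).
EGF: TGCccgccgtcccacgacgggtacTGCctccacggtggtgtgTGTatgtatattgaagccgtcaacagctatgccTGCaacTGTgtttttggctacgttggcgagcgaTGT
HBEGF: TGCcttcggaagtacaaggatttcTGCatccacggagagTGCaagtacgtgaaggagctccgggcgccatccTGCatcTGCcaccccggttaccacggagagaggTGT
AREG: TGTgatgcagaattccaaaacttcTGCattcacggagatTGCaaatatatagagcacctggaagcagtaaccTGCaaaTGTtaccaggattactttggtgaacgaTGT
BTC: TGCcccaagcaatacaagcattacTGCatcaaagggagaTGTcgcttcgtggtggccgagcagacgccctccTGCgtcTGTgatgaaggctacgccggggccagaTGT
TGFA: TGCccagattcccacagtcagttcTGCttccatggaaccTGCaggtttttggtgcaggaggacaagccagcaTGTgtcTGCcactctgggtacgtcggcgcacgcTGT
NRG4: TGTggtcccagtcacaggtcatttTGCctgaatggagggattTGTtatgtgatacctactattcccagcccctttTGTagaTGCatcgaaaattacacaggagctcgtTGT
In each of the 6 sequences the fourth and the fifth cysteine are separated by 1 codon, the third and the fourth by 10 and the fifth and the sixth by 8. The search itself required the gaps of 1 and 8 codons, so those are not a finding. It let the gap of 10, and the gap between the second and the third cysteine, vary only within limits. The gap between the second and the third cysteine is 5 codons in EGF and NRG4 and 4 codons in HBEGF, AREG, BTC and TGFA, so the module has 37 codons in the former pair and 36 in the others. Outside the cysteines the encoded residues differ more: identity ran from 16.7% between AREG and BTC (5 of 30 residues) to 43.3% between BTC and TGFA (13 of 30). AREG and BTC are near neighbours on chromosome 8, with 217614 bases between them, although their modules are the least alike of the 15 pairs.

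Compared per length, the receptors ERBB3 and EGFR were more abundant than any ligand measured, which leaves out NRG4, while ERBB2 and ERBB4 were not. ERBB3 had the highest level, 53.9 ± 9.05 CPM per kb of exon (SD, n = 15), followed by EGFR with 26.8 ± 3.75, and the 2 ranges did not overlap. BTC came next with 8.05 ± 3.31 CPM per kb and ERBB2 with 5.82 ± 0.708, a difference smaller than the spread of BTC. EGF with 2.33 ± 5.22 and HBEGF with 2.02 ± 1.84 CPM per kb were not separated by their spread either. ERBB4, TGFA and AREG closed the order with 0.0857, 0.0509 and 0.0241 CPM per kb, each with an SD as large as its mean or larger.

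Among the receptors, ERBB3 was the most abundant per length in 15 of 15 libraries and made up 62.0% ± 4.68 of the summed CPM per kb (SD, n = 15), against 31.1% ± 4.45 for EGFR, 6.78% ± 1.03 for ERBB2 and 0.0956% ± 0.0894 for ERBB4. The share of ERBB3 differed between diets by less than the spread between pigs, at 63.3% ± 4.77 in C, 61.8% ± 4.23 in DOP and 60.9% ± 5.67 in WCOC (SD, n = 5 each), and so did that of EGFR. ERBB2 made up 6.61% ± 0.648 for C, 6.15% ± 0.898 for DOP and 7.58% ± 1.09 for WCOC, so that DOP and WCOC differed by more than the SD of either. Their ranges overlapped (4.88% to 7.18% and 6.09% to 8.53%), and the difference was not tested. Among the ligands of the family that were measured, without NRG4, BTC was the most abundant per length in 14 of 15 libraries. It made up 70.6% ± 17.1 of their sum (SD, n = 15). The exception was DOP replicate 5, in which EGF made up 55.9% and BTC 35.0%. The ligand makeup thus varied between pigs far more than the receptor makeup.

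**Figure D1:**
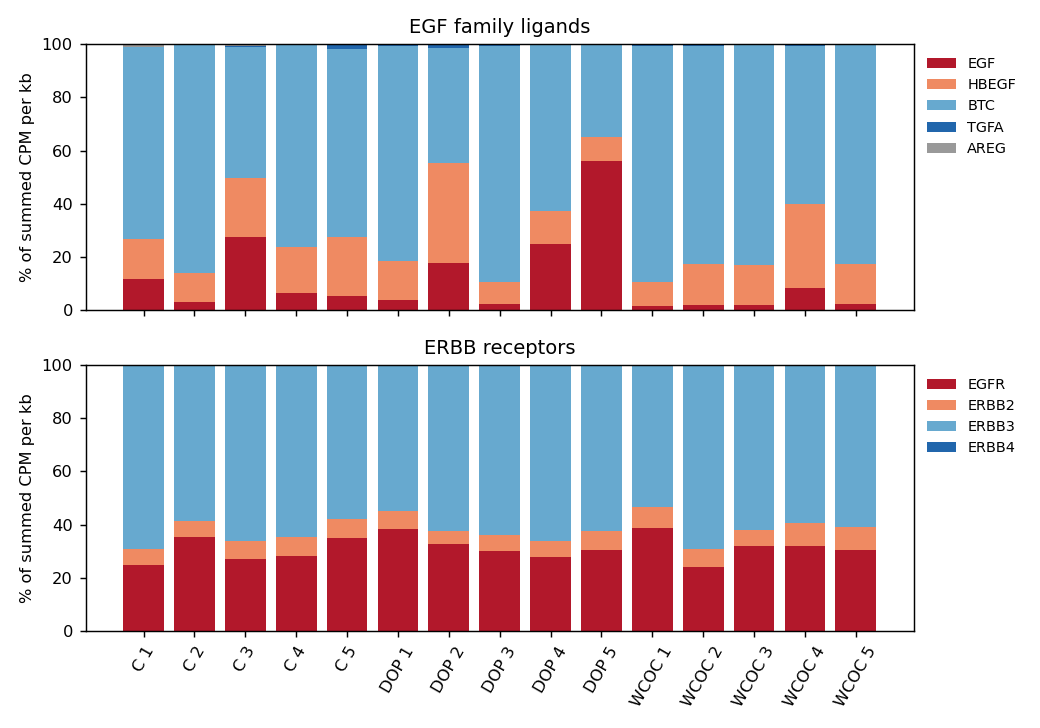
Share of each measured ligand (upper panel, without NRG4) and each receptor (lower panel) in the summed CPM per kb of exon of its class, in percent, with 1 bar per library. BTC takes the largest part of the ligand bar in 14 of 15 libraries and ERBB3 the largest part of the receptor bar in 15 of 15.

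EGF (ENSSSCG00000009134, chr8:112235607-112330062, reverse strand) encodes the ligand that gave the family its name. In the C libraries its level was 5.89, 1.79, 11.9, 2.14 and 1.95 CPM for replicates 1 to 5. In the DOP libraries it was 1.93, 22.8, 1.85, 23.9 and 118.6 CPM, and in the WCOC libraries 1.70, 1.01, 1.14, 3.08 and 1.33 CPM. DOP replicates 2, 4 and 5 stood above all other libraries, DOP replicates 1 and 3 lay among the C libraries, and 4 of 5 WCOC libraries lay below every DOP library.

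The mean level of EGF was 33.8 ± 48.6 CPM in DOP, 4.74 ± 4.36 in C and 1.65 ± 0.840 in WCOC (SD, n = 5 each). The log2FC between WCOC and DOP was -4.35 (SE 1.03, edgeR adjusted p = 0.0167), past both thresholds of the test (called genes had an adjusted p under 0.05 together with a log2FC above 0.58 or below -0.58). It was the only one of the 7 tested genes of the family called in this comparison, in which 7.76% of all 14918 tested genes were called (5.11% as lower and 2.65% as higher). The call was kept in each of the 10 fits that left out 1 library, with a log2FC between -4.68 and -2.93, the latter without DOP replicate 5. In DOP compared with C the log2FC of EGF was 2.83 (SE 0.95, edgeR adjusted p = 0.151, unadjusted p = 0.00927), and without 1 library it ran from 1.4025 (SE 0.77, without DOP replicate 5) to 3.52 (without C replicate 3). In WCOC compared with C it was -1.52 (SE 0.96, edgeR adjusted p = 0.330), with -1.72 (SE 0.55) within flow cell A and -0.82 (SE 0.98) without C replicate 3. DOP and WCOC libraries shared no flow cell, so flow cell and diet cannot be told apart between them, and with flow cell as a covariate the log2FC of EGF was -5.83 (SE 2.45, edgeR adjusted p = 0.344).

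**Figure D2:**
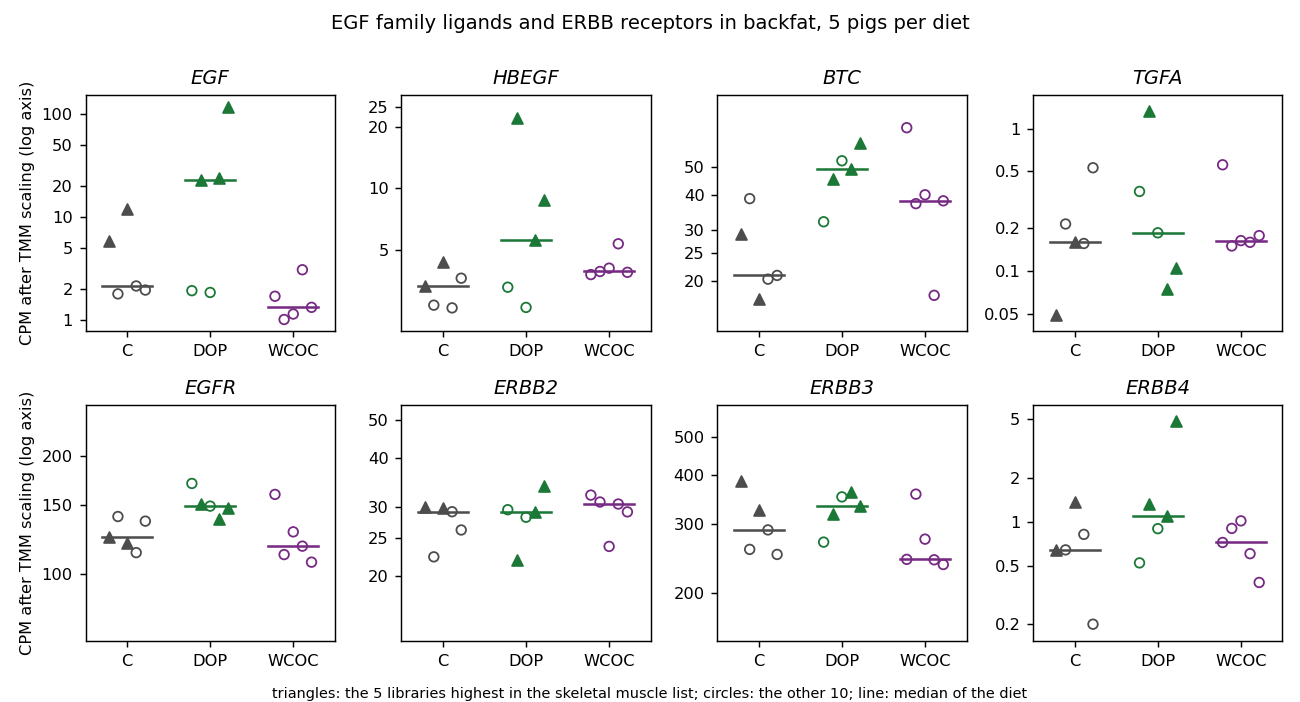
Level of 8 ligand and receptor genes in each library, in CPM on log axes, with 5 pigs per diet. Triangles are the 5 libraries with the highest level of skeletal muscle transcripts, circles the other 10, and lines the median of the diet. In the EGF panel the triangles lie between 5.89 and 118.6 CPM and the circles between 1.01 and 3.08 CPM.

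The EGF level moved with skeletal muscle transcripts. ACTA1, the skeletal muscle actin, had 1357, 14.9, 1883, 108 and 37.5 CPM in C replicates 1 to 5, 12.6, 6543, 112, 3238 and 23994 CPM in DOP, and 116, 48.3, 5.75, 377 and 26.1 CPM in WCOC. The 5 libraries with the highest EGF level were also the 5 with the highest ACTA1 level: DOP replicates 5, 2 and 4 and C replicates 3 and 1. In these 5 libraries, called muscle-rich here, EGF lay between 5.89 and 118.6 CPM, and in the other 10 between 1.01 and 3.08 CPM, without overlap. Among the muscle genes themselves, 8 of 10 tested were called lower in WCOC than in DOP, with a median log2FC of -5.81. Against C, edgeR called 0 of 10 muscle genes for DOP (median 3.32, 6 with an unadjusted p under 0.05) and 0 of 10 for WCOC (median -2.38, 0 with an unadjusted p under 0.05).

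With the mean of the muscle list as a covariate, the log2FC of EGF in WCOC compared with DOP was -0.99 (SE 0.41, edgeR adjusted p = 0.195). Without the 5 muscle-rich libraries, an alternative chosen after seeing the data, it was -0.19 (SE 0.40, edgeR adjusted p = 0.912). In those 10 libraries EGF had a median of 1.95 CPM in 3 C, 1.89 CPM in 2 DOP and 1.33 CPM in 5 WCOC libraries. DOP compared with C gave 0.67 (SE 0.36) for EGF with the covariate and -0.06 (SE 0.44) without those libraries. EGF was called in none of these 4 fits. In each of them fewer of all genes were called than in the main fit, as counted in the last section. The fits without the muscle-rich libraries also rest on 2 DOP libraries, so the absence of a call says little by itself.

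**Figure D3:**
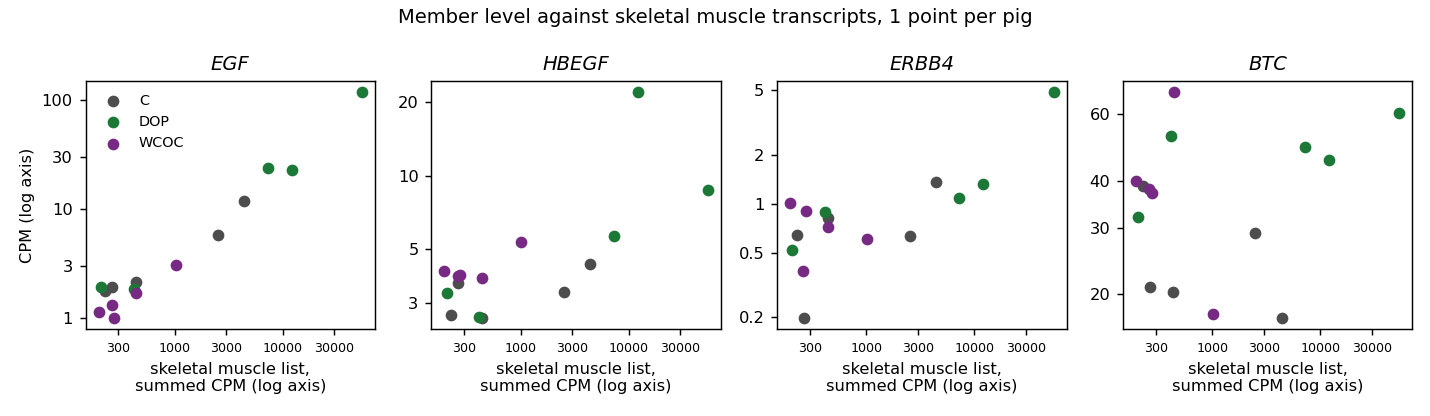
Level of EGF, HBEGF, ERBB4 and BTC (CPM, log axis) against the summed level of the skeletal muscle list (CPM, log axis), with 1 point per pig and colours for the diets. EGF is highest in the 5 libraries above 2508 CPM of muscle transcripts, while BTC spans 17.3 to 60.5 CPM among those libraries and 17.8 to 68.5 CPM among the others.

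HBEGF (ENSSSCG00000014362, chr2:142102455-142115192, reverse strand) encodes heparin-binding EGF-like growth factor, whose gene is an early response gene in many cells. Its level was 3.34, 2.69, 4.36, 2.61 and 3.64 CPM in C replicates 1 to 5, 3.29, 22.001, 2.62, 5.63 and 8.75 CPM in DOP, and 3.80, 3.93, 4.08, 5.37 and 3.89 CPM in WCOC. DOP replicate 2 held the highest value by far, DOP replicate 5 the next and DOP replicate 4 the third, and the diets overlapped. The log2FC was 1.34 (SE 0.45, edgeR adjusted p = 0.151) in DOP compared with C, 0.34 (SE 0.45, adjusted p = 0.671) in WCOC compared with C and -1.004 (SE 0.44, adjusted p = 0.154) in WCOC compared with DOP.

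The DOP values of HBEGF rested on a few libraries. Without DOP replicate 2 the log2FC of HBEGF was 0.60 (SE 0.29) in DOP compared with C and -0.27 (SE 0.29) in WCOC compared with DOP, and without the 5 muscle-rich libraries, which include it, DOP compared with C gave -0.02 (SE 0.26). Some immediate early genes of the ERBB pathway list, examined in each library after their values were seen, were highest in DOP replicate 2. FOS had 444.7 CPM in that library and 1.67 to 22.6 CPM in the other 14 libraries. EGR1 had 438.0 CPM against 4.13 to 29.4 CPM. JUN, JUNB and EGR3 were also highest there, with 172.6, 59.6 and 4.00 CPM. The part of these genes in the HBEGF difference was not tested beyond the fit without that library. EGR2, another early gene of the list, was not examined by library. Its mean was largest for the control pigs (8.48 CPM), ahead of the DOP pigs (4.28 CPM) and the WCOC pigs (2.11 CPM).

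BTC (ENSSSCG00000008965, chr8:70645721-70697538, reverse strand) encodes betacellulin, a ligand of EGFR and ERBB4. Its level was 29.1, 38.7, 17.3, 20.3 and 20.9 CPM in C replicates 1 to 5, 32.1, 45.3, 52.5, 49.2 and 60.5 CPM in DOP, and 68.5, 37.2, 39.9, 17.8 and 38.0 CPM in WCOC. Of the DOP libraries 4 of 5 lay above every C library, and C replicate 2 overlapped only with DOP replicate 1. WCOC held both the highest and a low value, replicates 1 and 4, with the other 3 close together.

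The mean level of BTC was 25.3 ± 8.70 CPM in C, 47.9 ± 10.4 in DOP and 40.3 ± 18.1 in WCOC (SD, n = 5 each). In DOP compared with C the log2FC was 0.93 (SE 0.30, edgeR unadjusted p = 0.00704, adjusted p = 0.141), a fold of 1.90 that did not pass the adjusted threshold. For WCOC against C it was 0.67 (SE 0.30, adjusted p = 0.162) and in WCOC compared with DOP -0.25 (SE 0.29, adjusted p = 0.627). Unlike EGF, BTC did not separate the muscle-rich libraries, at 17.3 to 60.5 CPM, from the others, at 17.8 to 68.5 CPM, and the muscle covariate left its log2FC in DOP compared with C at 0.91 (SE 0.33). The covariate of the macrophage list gave a BTC log2FC of 0.59 (SE 0.31) in DOP compared with C and 0.16 (SE 0.36) in WCOC compared with C. Within flow cell A the BTC log2FC of WCOC compared with C was 0.60 (SE 0.34), and on flow cell B the single C library had 20.9 CPM, below all 5 DOP libraries.

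AREG (ENSSSCG00000008963, chr8:70417935-70428106, forward strand) encodes amphiregulin and TGFA (ENSSSCG00000008326, chr3:71948232-72054257, forward strand) transforming growth factor alpha, both ligands of EGFR. AREG had 0 to 2 counts in every library, so a difference between diets was not detectable at this depth. TGFA had 1, 5, 5, 4 and 16 counts in C replicates 1 to 5, 9, 35, 6, 2 and 3 counts in DOP, and 17, 4, 5, 5 and 6 counts in WCOC. The highest TGFA count was in DOP replicate 2, the library with the highest HBEGF level, and the diets overlapped. Fitted with no filter, TGFA gave a log2FC of 0.81 (SE 0.73) in DOP compared with C and 0.08 (SE 0.76) in WCOC compared with C.

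EGFR, ERBB2 and ERBB3 varied less between pigs than the ligands. EGFR (ENSSSCG00000022126, chr9:139302410-139474632, forward strand), the receptor of most of these ligands, had 124.3, 140.5, 120.2, 113.6 and 136.7 CPM in C replicates 1 to 5, 170.6, 151.4, 149.3, 138.1 and 148.0 CPM in DOP, and 159.9, 112.3, 128.4, 118.0 and 107.4 CPM in WCOC. In DOP, 4 of 5 libraries lay above every C library, and 4 of 5 WCOC libraries lay below every DOP library. The mean level was 127 ± 11.3 CPM in C, 151 ± 11.8 in DOP and 125 ± 20.9 in WCOC (SD, n = 5 each).

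The log2FC of EGFR was 0.25 (SE 0.10, edgeR adjusted p = 0.230) in DOP compared with C, -0.02 (SE 0.10, adjusted p = 0.923) in WCOC compared with C and -0.27 (SE 0.10, adjusted p = 0.1002) in WCOC compared with DOP. None of these passed, and all are below the log2FC threshold in size. The differences that involve DOP were about as large without the 5 muscle-rich libraries, 0.29 (SE 0.17) and -0.35 (SE 0.16), and smaller with flow cell as a covariate, 0.15 (SE 0.19) and -0.14 (SE 0.22).

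ERBB3 (ENSSSCG00000020725, chr5:21474218-21495040, forward strand), the neuregulin receptor, had 385.1, 257.9, 324.5, 289.2 and 250.4 CPM in C replicates 1 to 5, 269.2, 317.8, 351.0, 360.7 and 333.3 CPM in DOP, and 243.3, 356.7, 273.9, 242.6 and 236.0 CPM in WCOC. The ranges of the 3 diets overlapped widely. Its log2FC was 0.11 (SE 0.14, edgeR adjusted p = 0.730) in DOP compared with C, -0.16 (SE 0.14, adjusted p = 0.508) in WCOC compared with C and -0.27 (SE 0.14, adjusted p = 0.230) in WCOC compared with DOP.

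ERBB2 (ENSSSCG00000017497, chr12:22591621-22621384, reverse strand), the partner receptor with no known soluble ligand, had the smallest spread relative to its mean. It ranged from 21.96 to 34.03 CPM over the 15 libraries, and its mean was 27.5 ± 3.26 CPM for C, 28.6 ± 4.32 for DOP and 29.3 ± 3.26 for WCOC (SD, n = 5 each). Its log2FC was 0.05, 0.09 and 0.04 in DOP compared with C, WCOC compared with C and WCOC compared with DOP, each with an SE of 0.12 and an edgeR adjusted p of 0.858, 0.668 and 0.877.

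ERBB4 (ENSSSCG00000016160, chr15:113966573-115096984, reverse strand), a receptor of neuregulins, BTC and HBEGF, was near the limit of measurement with 6 to 139 counts per library. Its level was 0.638, 0.641, 1.37, 0.818 and 0.199 CPM in C replicates 1 to 5, 0.522, 1.32, 0.895, 1.09 and 4.85 CPM in DOP, and 0.720, 0.898, 1.01, 0.604 and 0.384 CPM in WCOC. DOP replicate 5, the library richest in muscle transcripts, stood alone above the rest. The log2FC of ERBB4 was 1.23 (SE 0.57, edgeR adjusted p = 0.270) in DOP compared with C and 0.37 (SE 0.44) without DOP replicate 5. Between WCOC and DOP it was -1.26 (SE 0.56, adjusted p = 0.154), or -0.41 (SE 0.43) without that library, and in WCOC compared with C -0.03 (SE 0.58, adjusted p = 0.983).

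Counted together, 0 of 7 tested genes of the family were called in DOP compared with C, in which 0.764% of all genes were called. An unadjusted p under 0.05 was reached by 5 of 7 (EGF, HBEGF, BTC, EGFR and ERBB4), all higher in DOP, against 17.6% of all genes. DESeq2, run on the same counts, called 3 of 7 (EGF, HBEGF and BTC, adjusted p = 0.0431, 0.0426 and 0.0382) and 496 genes in all, against 114 by edgeR, a count that ran from 0 (without C replicate 3 or 5 or DOP replicate 2 or 4) to 200 (without C replicate 1). It was 46 without C replicate 4, 4 without DOP replicate 3 and 1 without DOP replicate 5. The median log2FC of the 7 genes was 0.93, and that of all genes 0.01. The 7 genes were chosen with earlier results of these data known, so their shares beside those of all genes, here and below, are descriptions. EGF and HBEGF were both highest in DOP replicates 2, 4 and 5, so they do not count as separate observations.

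Of the 7 genes in WCOC compared with C, 0 were called by edgeR and 0 by DESeq2, where edgeR called 6.25% of all genes, and 1 of 7 (BTC) had an unadjusted p under 0.05, against 26.4%. Between WCOC and DOP, 4 of 7 had an unadjusted p under 0.05, all lower in WCOC (EGF, HBEGF, EGFR and ERBB4), against 28.1% of all genes. In none of the 3 comparisons did any of the 7 genes separate 2 diets without overlap. Of all genes 3.47%, 7.62% and 8.9% did so in DOP compared with C, WCOC compared with C and WCOC compared with DOP. At shares this low, 0 of 7 cannot be told from the share over all genes. DOP and WCOC were compared with the same 5 C libraries, so those comparisons are not independent of each other.

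**Figure D4:**
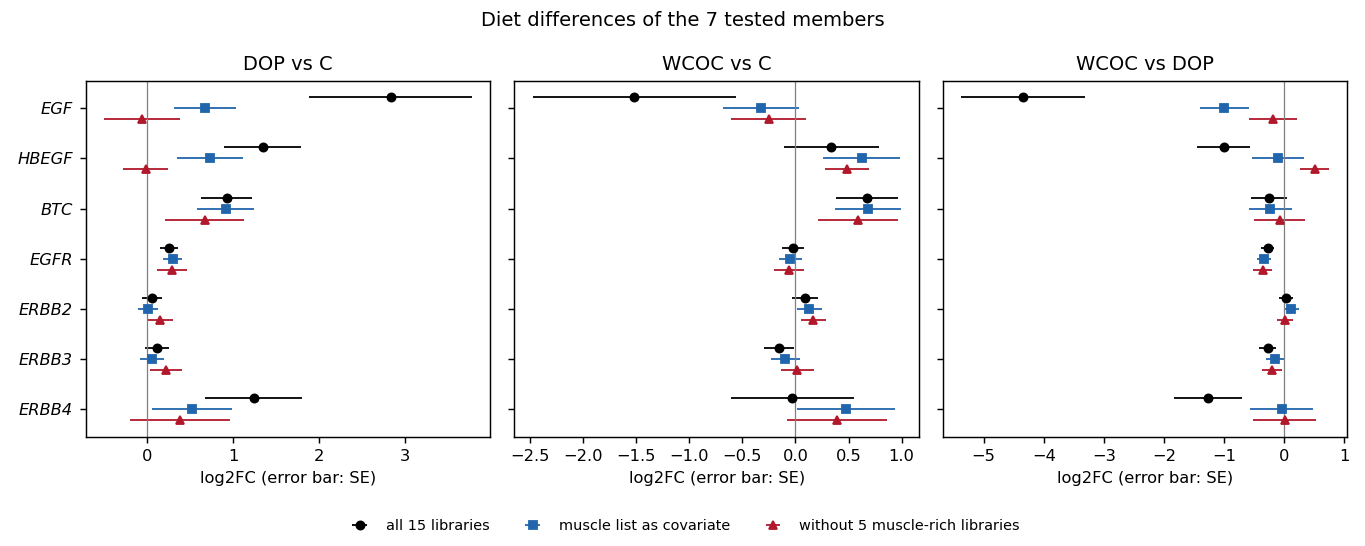
log2FC of the 7 tested ligand and receptor genes in the 3 comparisons (points, with SE as bars), from all 15 libraries, with the skeletal muscle list as a covariate, and without the 5 muscle-rich libraries. For EGF in WCOC compared with DOP the points lie at -4.35, -0.99 and -0.19, while those of ERBB2 stay near 0 in all panels.

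For each tested gene, the 3 genes with the most similar log2 CPM over the 15 libraries were taken from 11133 genes with a symbol and sufficient expression. These values are descriptions, since all genes of a library share its tissue makeup. EGF was closest to FBXO40, HOMER1 and JPH1 (Pearson's r of 0.994, 0.989 and 0.986). HBEGF was closest to ANKRD2, ING2 and RRAD (0.891, 0.887 and 0.868), and BTC to GNPNAT1, NBR1 and DHTKD1 (0.910, 0.910 and 0.903). Among the receptors, EGFR was closest to GTF3C4, CNNM3 and CLCC1 (0.869, 0.866 and 0.858), ERBB2 to C7orf50, IKBKG and C1orf174 (0.796, 0.790 and 0.773), ERBB3 to RPS27L, EIF3F and RPL7A (0.958, 0.957 and 0.945) and ERBB4 to FKBP3, AK1 and ARPP21 (0.920, 0.912 and 0.908).

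A list of 88 further genes of the pathway was described around these members, of which 84 were matched and 81 tested. The other ligands were scarce: NRG2, the most abundant of the 4 found, had a mean of 0.945 CPM per kb over all libraries (highest 1.67), and EREG and NRG3 did not pass the filter. Per length, AKT2, a kinase of the PI3K arm, had the highest mean of its role in each diet, with 97.8 CPM per kb in C, 105.7 in DOP and 107.8 in WCOC. In the 6 remaining roles the leading gene was not the same in the 3 diets. In ligand shedding, CD9, a membrane protein that associates with the HBEGF precursor, led in C with 167 CPM per kb, and TIMP3, an inhibitor of ADAM proteases, led in DOP (108.8) and WCOC (123). MRAS led the Ras-MAPK cascade in C and DOP with 81.1 and 71.7 CPM per kb, but not in WCOC with 43.8. DUSP4 led the inhibitors of the cascade in C and DOP with 27.6 and 20.8, and in WCOC it had 9.93 beside 10.4 for SPRY2. JUN led the target genes in C (39.5) and WCOC (50.1), and FOS led them in DOP (81.1), where DOP replicate 2 stood far above the rest.

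In DOP compared with C, 0 of 81 pathway genes were called by edgeR, beside 0.764% of all genes. An unadjusted p under 0.05 was reached by 16 of 81 (8 higher and 8 lower), beside 17.6% of all genes. DESeq2 called 3 of 81, and it called more of all genes than edgeR, as given above. The diets did not overlap for 2 of 81 (SPRY2 and RHBDF2), which is 2.47% beside 3.47% of all genes. SPRY2, an inhibitor of Ras-MAPK signalling, was 35.97 ± 5.57 CPM in DOP and 25.3 ± 1.84 in C (SD, n = 5 each), a log2FC of 0.51 (SE 0.10, edgeR adjusted p = 0.0310) that was under the size threshold. RHBDF2, a cofactor of the protease ADAM17, was 14.5 ± 2.08 CPM in DOP and 25.1 ± 8.78 in C (log2FC -0.79, SE 0.19, edgeR adjusted p = 0.0633). RHBDF2 passed the thresholds without C replicate 1 and without C replicate 2 (adjusted p = 0.0434 and 0.0424), by DESeq2 (adjusted p = 0.00566), and with flow cell as a covariate (log2FC -1.40, adjusted p = 0.0124). It was not called in the other 8 fits without 1 library, with an edgeR adjusted p of up to 0.158. Part of the macrophage list was also lower in DOP than in C. Of its 11 genes 1 was called by edgeR, and 6 had an unadjusted p under 0.05, all lower. The median log2FC of the list was -0.71, but C1QA, C1QB, C1QC, MRC1 and CD163 lay between -0.29 and 0.14. With that list as a covariate the log2FC of RHBDF2 was -0.42 (SE 0.16, edgeR adjusted p = 0.482). The next genes by p were PLCG1, a phospholipase activated by the receptors (log2FC 0.41, SE 0.12), and the adaptors SHC3 (-1.70, SE 0.50) and GRB2 (-0.24, SE 0.08), with edgeR adjusted p of 0.108, 0.116 and 0.143.

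In WCOC compared with C, 6 of 81 pathway genes were called, 1 higher and 5 lower, which is 7.41% beside 6.25% of all genes (2.33% higher and 3.93% lower). LRIG3, a member of the LRIG family of transmembrane proteins that act on ERBB receptors, rose from 30.7 ± 3.40 CPM in C to 52.2 ± 6.62 in WCOC (SD, n = 5 each, log2FC 0.77, SE 0.12, edgeR adjusted p = 0.00176). DUSP4, a phosphatase that inactivates MAP kinases, fell from 147 ± 29.5 to 53.0 ± 22.5 CPM (log2FC -1.47, SE 0.30, edgeR adjusted p = 0.00921). MRAS, a GTPase of the Ras family, fell from 406 ± 95.9 to 219 ± 38.6 CPM (log2FC -0.89, SE 0.17, edgeR adjusted p = 0.00714). For these 3 genes the calls were kept in each of 10 fits without 1 library. The adaptors SHC3 (log2FC -1.95, SE 0.51) and GAB2 (-0.60, SE 0.16) and the metalloprotease ADAM19 (-0.79, SE 0.21) also fell, with edgeR adjusted p of 0.0268, 0.0311 and 0.0301. The diets did not overlap for LRIG3, DUSP4, MRAS, GAB2 and ADAM19, and they overlapped for SHC3. Counted over the pathway list, 6 of 81 genes had no overlap, which is 7.41% beside 7.62% of all genes.

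The calls of SHC3, GAB2 and ADAM19 were lost in 6, 5 and 6 of the 10 fits without 1 library. In those 10 fits the log2FC ran from -2.46 to -1.58 for SHC3, -0.67 to -0.51 for GAB2 and -0.89 to -0.64 for ADAM19. SHC3 and ADAM19 were each not called when C replicate 3 or 5 or WCOC replicate 1, 3, 4 or 5 was left out (largest edgeR adjusted p of 0.0763 and 0.0785), and GAB2 when C replicate 3 or 4 or WCOC replicate 1, 4 or 5 was (0.0848). Macrophage transcripts moved in the same direction as these 3 genes: 6 of 11 genes of that list were called lower in WCOC than in C, with a median log2FC of -1.19. With the macrophage list as a covariate 0 of 81 pathway genes were called, and 51 genes were called in all. In that fit the log2FC was 0.67 (SE 0.17) for LRIG3, -1.34 (SE 0.41) for DUSP4 and -1.06 (SE 0.23) for MRAS, close to the values above or larger, and nearer 0 than above for SHC3 (-0.55, SE 0.42), GAB2 (-0.34, SE 0.21) and ADAM19 (-0.44, SE 0.28). Fibroblast transcripts, with 6 of 6 genes found and none at 0, moved the same way: against C, WCOC had 3 of 6 called lower with a median log2FC of -0.71, and against DOP 2 of 6 with a median of -0.68. They summed to 22793 to 34375 CPM in C, 19590 to 30792 in DOP and 14369 to 25124 in WCOC, and their part in the pathway differences was not tested.

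Between WCOC and DOP, 8 of 81 were called, 1 higher and 7 lower, which is 9.88% beside 7.76% of all genes. LRIG3 was again the gene that rose, from 32.2 ± 5.01 CPM in DOP to 52.2 ± 6.62 in WCOC (log2FC 0.70, SE 0.12, edgeR adjusted p = 0.00356). SPRY2 fell to 23.9 ± 1.07 CPM (log2FC -0.59, SE 0.10, edgeR adjusted p = 0.00302), and MRAS, with 359 ± 56.9 CPM in DOP, fell by 0.71 on the log2 scale (SE 0.17, edgeR adjusted p = 0.0189). The proteases ADAM12 and ADAM19 also fell, with log2FC of -1.05 and -0.74 (SE 0.27 and 0.21) and edgeR adjusted p of 0.0246 and 0.0358. DUSP4 and ETV4, a transcription factor induced by the cascade, fell with log2FC of -1.06 and -1.05 (SE 0.30 and 0.32, edgeR adjusted p = 0.0337 and 0.0474).

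The calls of LRIG3 and MRAS were kept in each of 10 fits without 1 library. SPRY2 was not called without DOP replicate 1 or 2 or WCOC replicate 5, where its log2FC of -0.57, -0.51 and -0.56 fell short of the size threshold and its edgeR adjusted p was 0.00646, 0.007 and 0.00838. ADAM12 was not called without DOP replicate 2 or 5 or WCOC replicate 1 or 4, with a log2FC between -1.05 and -0.91 and an adjusted p of up to 0.0594 in these fits. DUSP4 was called in 3 of the 10 fits, only without DOP replicate 3 or 4 or WCOC replicate 5, ADAM19 in 2, only without DOP replicate 2 or 3, and ETV4 in 1, only without DOP replicate 3. With the muscle list as a covariate ADAM12 gave -0.89, and 2 of 81 genes were called. With flow cell as a covariate, which rests on 1 C library, 0 of 81 were called. FOS and EGR1, the pathway genes of widest range, were not called, with log2FC of -3.54 (SE 1.39) and -2.60 (SE 1.09), and DOP replicate 2 held the highest level of both.

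**Figure D5:**
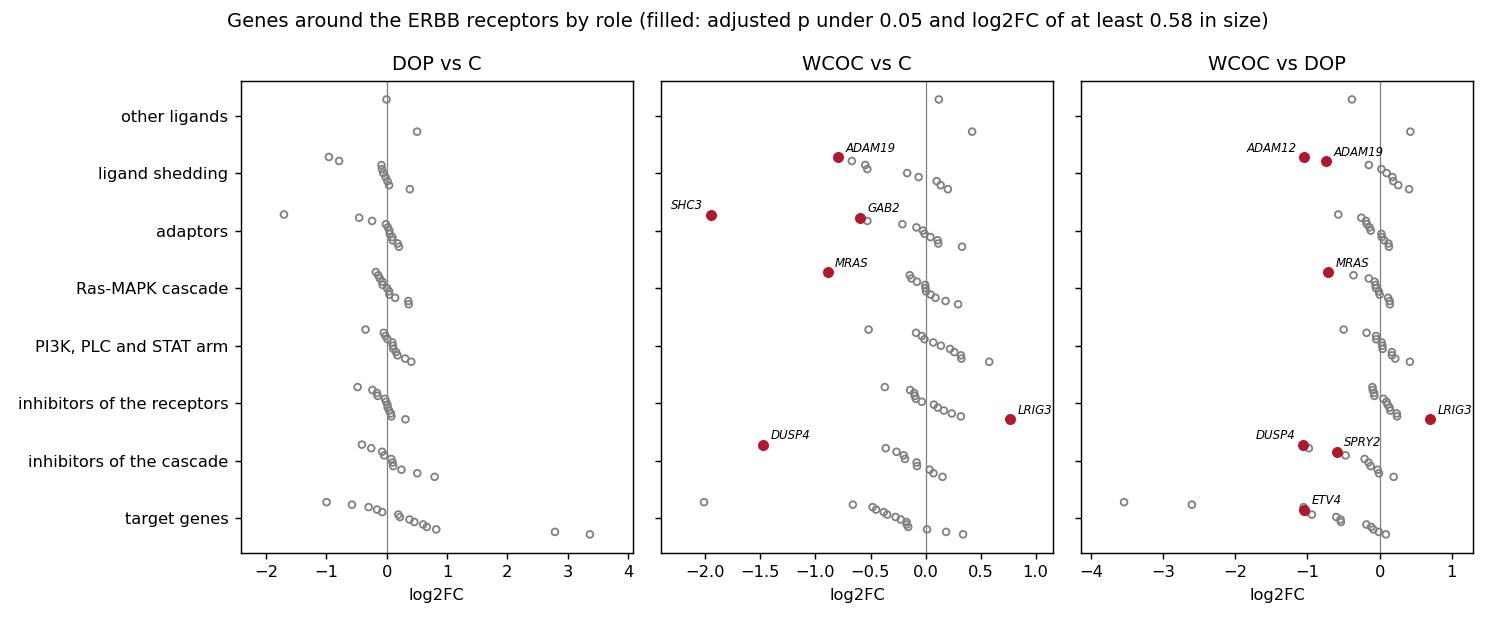
log2FC of 80 tested genes around the ERBB receptors, in rows by role, for the 3 comparisons, with 1 point per gene. Filled points were called: 0 of these 80 in DOP compared with C, 6 in WCOC compared with C and 7 in WCOC compared with DOP, and LRIG3 is the gene called higher in each of the last 2.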

How the data were processed

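Backfat RNA of 15 pigs was sequenced as paired-end libraries. The authors checked reads with FastQC, aligned them to Sscrofa11.1 with HISAT2, set to strand-specific reads, and counted them per gene with HTSeq. The deposited values are raw counts, 1 file per pig. Tool versions, annotation release and strand option of the counting are not given in the sources used here, so genes overlapping a neighbour are uncertain. Lines that name no gene (23.4% to 32.8% of a library) stayed out. Diets were taken from the sample titles and flow cells from run identifiers.

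Counts were analysed with edgeR 4.0.16 in R 4.3.3: filterByExpr (14918 genes), TMM (factors 0.857 to 1.21), and a quasi-likelihood fit of the 15 libraries with 1 mean per diet. Tests were two-sided and p-values were adjusted over the 14918 genes by Benjamini and Hochberg's method. Called genes had an adjusted p under 0.05 together with a log2FC above 0.58 or below -0.58. The workflow was tested on simulated data. DESeq2 1.42.0 was an alternative. CPM per kb used RefSeq exon lengths.

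Members, pathway genes and marker lists were chosen with earlier results of these data known. All members were named, and of the pathway list the called genes, or the 5 smallest p where under 5 were called. The values of 1 called pathway gene are not reported here, though it is counted. Symbols were matched through the annotation. Of the lists not given in the report, summed CPM over all libraries lay at 20.5 to 157 (epidermis and hair follicle, 10 of 14 genes found), 71.4 to 212 (Schwann cell, 7 of 8, GFRA3 at 0), 21.2 to 52.7 (mast cell, 4 of 6), 3.24 to 29.6 (T cell, 5 of 6) and 863 to 1520 (endothelial, 5 of 7). Fits with other size factors, filters, samples or covariates, and without each library in turn, were run as alternatives. Replicate numbers did not pair pigs across diets.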

Additional observations from a re-analysis of the deposited data

Results flagged for a closer look

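Of the 27 sets of 5 libraries formed by 9 genes and 3 diets, 5 held a value set apart from the other 4 by Dixon's test at the 95% level (a gap over 0.71 of the range), where chance alone marks about 1 set in 20. EGF was 118.6 CPM in DOP replicate 5, against 23.9 CPM in the next DOP library. ERBB4 was 4.85 CPM in the same library, against 1.32 CPM in the next. TGFA was 1.32 CPM in DOP replicate 2, against 0.362 CPM in the next, and 0.556 CPM in WCOC replicate 1, against 0.177 CPM in the next. HBEGF was 5.37 CPM in WCOC replicate 4, against 4.08 CPM in the next, while the higher HBEGF value of DOP replicate 2 (22.001 CPM) was not set apart by this test.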

How the results depend on the processing

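With DESeq2, 3 members and 3 pathway genes were called in DOP compared with C, where edgeR called 0 of either and fewer of all genes. The call of EGF in WCOC compared with DOP, the only member called, was lost (0 members called) with flow cell as a covariate, with the muscle list as a covariate, without the 5 muscle-rich libraries, and with replicate number as a block (log2FC -3.81, edgeR adjusted p = 0.0884). Same-numbered libraries of different diets correlated between -0.495 and 0.345 (median -0.0987), and 1 of 15 libraries correlated best with its own number, so the block has no basis in a pairing. Pathway genes called in DOP compared with C were 1 with flow cell as a covariate, 1 with no minimum log2FC and 0 to 1 without 1 library. In WCOC compared with C they were 6, against 0 with the macrophage covariate, 2 without the 5 muscle-rich libraries and 3 to 8 without 1 library. In WCOC compared with DOP they were 8, against 3 with the replicate block, 0 with flow cell, 2 with the muscle and 4 with the macrophage covariate, 0 without the 5 muscle-rich libraries and 3 to 8 without 1 library. The cause was not tested. Calls over all genes moved by more than 1.5 times in DOP compared with C (114, against 0 with the replicate block, 2 with only the 2 diets compared, 43 with the muscle and 5 with the macrophage covariate, and 0 without the muscle-rich libraries), in WCOC compared with C (933, against 473 with the block, 486 within flow cell A, 51 with the macrophage covariate, 1493 with no minimum log2FC and 354 without the muscle-rich libraries) and in WCOC compared with DOP (1158, against 561, 1 with flow cell, 431 with the muscle covariate, 1842 with no minimum log2FC and 92 without those libraries). Without 1 library these counts ran from 0 to 200, from 468 (without WCOC replicate 1) to 1163 and from 639 (without WCOC replicate 1) to 1291.

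Some directions turned. Without the 5 muscle-rich libraries the log2FC was -0.0623 (EGF) and -0.0227 (HBEGF) in DOP compared with C, 0.0171 (ERBB3) and 0.39 (ERBB4) in WCOC compared with C, and 0.0123 (ERBB4) and 0.51 (HBEGF) in WCOC compared with DOP. ERBB4 was 0.48 in WCOC compared with C with the muscle covariate, EGFR 0.0066 there with flow cell as a covariate, and ERBB2 -0.0516 in WCOC compared with DOP with flow cell. Without 1 library, log2FC ran from -0.12 to 0.029 (EGFR) and -0.28 to 0.33 (ERBB4) in WCOC compared with C, and for ERBB2 from -0.0206 to 0.13 in DOP compared with C and -0.0465 to 0.10 in WCOC compared with DOP. A reading counted as the same where the direction held and the gene stayed called or stayed not called, whatever the size of its log2FC. Genes not called in the main fit are therefore among the same readings, and had no call to lose. Of the planned refits other than those without 1 library, 359 gave the same reading, 42 lost a call, 6 gained one and 3 turned. Of those without 1 library the numbers were 335, 51, 2 and 12, and of those without the 5 muscle-rich libraries 21, 13, 0 and 6. Depth limits AREG and TGFA, and flow cell and DOP are almost confounded, since 1 C library shares the flow cell of DOP.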
